A study of Mus musculus with 21 samples.

Results

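The cardiac receptors for adenosine, acetylcholine and noradrenaline, with the proteins that act directly behind them, were described in the left ventricle of 21 male mice. The set held 9 of the 55450 genes of the deposited count table: the receptor genes Adora1, Chrm2, Adrb1, Adra1a and Adra1b, the regulators Rgs2 and Rgs4, and the adenylyl cyclases Adcy5 and Adcy6. Adora1 and Chrm2 were chosen by their measured counts, which earlier results of these data gave as lower with R403Q, and the other 7 belong to the same signalling routes. The choice named no diet, so the genotype differences of Adora1 and Chrm2 on either diet are descriptions, with no p-value or call given. All 9 passed the filter on low counts, as did 17309 genes in all.

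The mice were of strain 129S6/SvEv and fell into 4 groups by genotype and diet. Wild-type mice on control diet (WT-CD, n = 5) and on the same diet with empagliflozin (WT-EMPA, n = 5) were compared with R403Q mice on control diet (R403Q-CD, n = 7) and on empagliflozin (R403Q-EMPA, n = 4). R403Q, written Myh6+/R404Q in the labels, is a heterozygous missense change in the cardiac myosin heavy chain gene Myh6 and models hypertrophic cardiomyopathy. Empagliflozin (EMPA), an inhibitor of the renal sodium-glucose cotransporter, was given at 0.15 mg/g of diet, about 15 mg/kg body weight. The study's methods place this RNA-seq at 12 weeks of age after 2 weeks of diet, while the labels give 16 weeks. A missense change does not alter a count, so the genotype labels could not be checked from this table.

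Adenosine A1 receptors (Adora1) and muscarinic M2 receptors (Chrm2) couple to inhibitory G proteins. They restrain adenylyl cyclase and open the inward rectifier channel of Kcnj3 and Kcnj5, which slows the heart and opposes adrenergic drive. The beta receptor of Adrb1 raises cyclic AMP through stimulatory G proteins and the cyclases of Adcy5 and Adcy6, the main cardiac forms, which inhibitory G proteins and calcium hold back. The alpha receptors of Adra1a and Adra1b act through Gq and phospholipase C, and the proteins of Rgs2 and Rgs4 speed the shut-off of G protein alpha subunits.

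The promoters of 3 genes are shown, because Adora1 and Chrm2 are the receptors for which the set was chosen, and because Adcy5 was the other gene whose R403Q levels lay wholly below wild type on EMPA diet. RefSeq gave a promoter for 7 of the 9 genes (build GRCm38.p6), and Adra1a and Adcy6 had none in that table. Each line gives the 250 bases before the start, 5′ to 3′ on the gene's strand, and capitals mark each GC box (GGGCGG on either strand):
Chrm2, chr6:36387834-36388083, plus strand: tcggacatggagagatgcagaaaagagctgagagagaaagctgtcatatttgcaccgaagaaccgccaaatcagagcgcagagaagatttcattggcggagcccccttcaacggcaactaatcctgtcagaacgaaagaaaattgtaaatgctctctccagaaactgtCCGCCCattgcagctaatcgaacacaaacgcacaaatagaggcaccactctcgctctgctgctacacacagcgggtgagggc
Adora1, chr1:134235458-134235707, minus strand: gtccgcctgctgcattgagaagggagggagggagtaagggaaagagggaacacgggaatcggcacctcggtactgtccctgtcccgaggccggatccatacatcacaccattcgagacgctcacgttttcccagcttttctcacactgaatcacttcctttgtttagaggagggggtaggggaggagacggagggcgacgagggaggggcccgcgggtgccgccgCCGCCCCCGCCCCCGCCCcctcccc
Adcy5, chr16:35154614-35154863, plus strand: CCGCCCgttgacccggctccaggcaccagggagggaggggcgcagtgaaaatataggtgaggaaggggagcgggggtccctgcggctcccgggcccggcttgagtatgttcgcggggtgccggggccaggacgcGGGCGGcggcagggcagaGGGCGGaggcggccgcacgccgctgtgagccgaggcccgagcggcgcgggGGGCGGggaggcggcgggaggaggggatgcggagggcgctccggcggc
The GC box stood 1 time before Chrm2, 3 times before Adora1 and 4 times before Adcy5, and 32.7% of all 32851 promoter windows of this length held at least 1. GC content was 50% before Chrm2, 64.4% before Adora1 and 78.0% before Adcy5. Neither TGACG, the letters of a cyclic AMP response half-site, nor GATAA, the core of a GATA site, lay on either strand of any of the 3 windows, while 17.8% and 22.6% of all promoter windows held them. These counts describe letters in 250 bases and say nothing of what binds there.

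On the GRCm38 build Adora1 lies on chromosome 1 at 134199223-134235431 and Chrm2 on chromosome 6 at 36388084-36528414. Adrb1 lies on chromosome 19 at 56722199-56733113, Adra1a on chromosome 14 at 66635251-66771168 and Adra1b on chromosome 11 at 43774606-43901210. Rgs2 and Rgs4 are both on chromosome 1, at 143999338-144004161 and 169741477-169747642. Adcy5 spans 35154877-35305738 on chromosome 16 and Adcy6 98589973-98610076 on chromosome 15.

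Library totals ran from 23491535 to 43539684 counts, so 3 counts corresponded to between 0.0689 and 0.128 counts per 1000000 (CPM), far below every level given for the 9 genes. CPM values use library sizes scaled by the trimmed mean of M-values (TMM). The libraries had the markers of cardiomyocytes: over the 21 mice Myh6 lay between 17530 and 54667 CPM and Myl2 between 6666 and 13577 CPM. Of 6 autonomic neuron markers, Th and Chat never passed 3 counts, while Dbh ran at 2.81 to 9.04 CPM and the 6 together at 16.2 to 28.0 CPM. The atrial genes Myl7 (0.146 to 180.4 CPM) and Sln (0 to 88.4 CPM) varied widely within every group, whereas Bmp10 stayed at or below 4 counts. R403Q-CD replicate 2 stood apart with 10996 CPM of Nppa, the gene of atrial natriuretic peptide and a marker of ventricular stress, against 883 to 3826 CPM in the other R403Q-CD mice. By the cage numbers in the labels, mice on the 2 diets came from different cages, 4 on control diet and 3 on EMPA, so cage and diet cannot be told apart. Of the 5 WT-EMPA mice, 3 shared a cage that held no R403Q mouse, and the other 2 EMPA cages held 1 WT-EMPA and 2 R403Q-EMPA mice each.

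Per exon length, the adenylyl cyclase Adcy6 was the most abundant of the 9 and the 4 remaining receptors the least. In WT-CD, as CPM divided by the exon length in kilobases (RPKM), Adcy6 reached 53.4 ± 4.06 (SD, n = 5), Chrm2 32.1 ± 2.36, Adcy5 21.4 ± 1.97, Rgs2 15.5 ± 1.90 and Rgs4 8.73 ± 0.475. Each of these 5 was separate in range from the next. Below them Adra1b (5.56 ± 1.05 RPKM), Adra1a (4.79 ± 0.678), Adrb1 (4.74 ± 0.499) and Adora1 (4.55 ± 0.369) overlapped one another from neighbour to neighbour. Adcy6 and Chrm2 kept the first and second place in all 4 groups.

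The other receptors of the same families were scarcer. Of 12 reported, 7 passed the filter. The vascular adenosine receptor gene Adora2a (2.76 RPKM in WT-CD, range 2.48 to 3.45) came nearest among these, and the other 6 tested lay between 0.0862 RPKM (Adora3) and 0.524 RPKM (Adra1d). Chrm1, Chrm4, Chrm5, Adrb3 and Adra2a never passed 6 counts in a mouse. Chrm2 was thus the muscarinic receptor with nearly all muscarinic reads, ahead of Chrm3 at 0.138 RPKM.

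**Figure D1:**
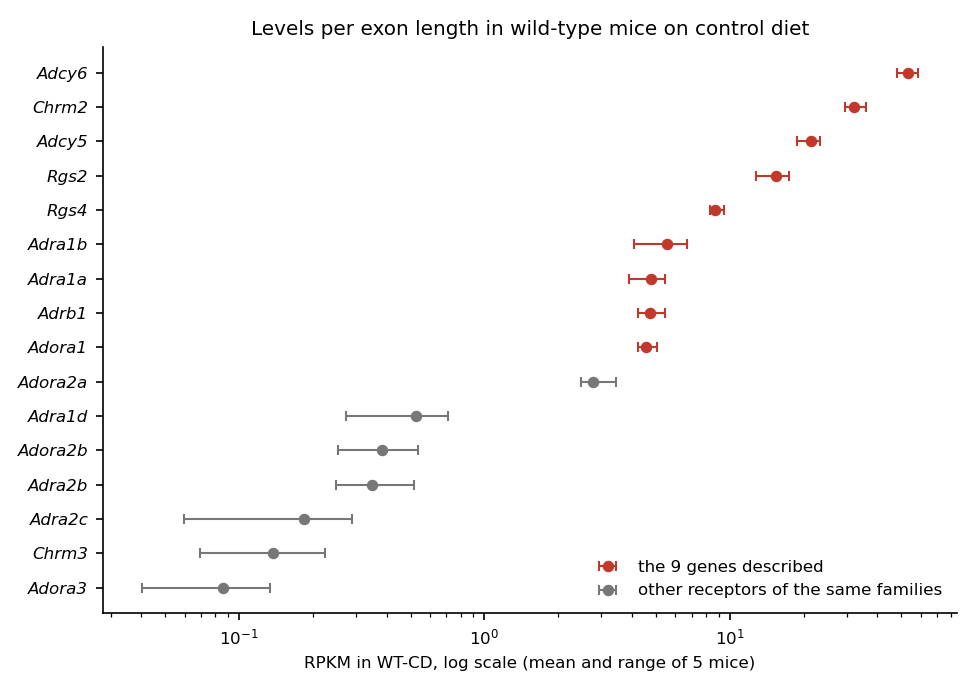
Levels in the 5 WT-CD mice in RPKM on a log axis; points are means and bars run from the lowest to the highest mouse. Red marks the 9 genes described, from Adcy6 at 53.4 RPKM to Adora1 at 4.55 RPKM, and grey 7 other tested receptors of the same families, from Adora2a at 2.76 RPKM to Adora3 at 0.0862 RPKM.

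Chrm2, the M2 receptor, had the largest log2 fold change of the 9 between the genotypes on EMPA diet. The 5 WT-EMPA mice had 189, 191, 189, 185 and 231 CPM, and the 4 R403Q-EMPA mice had 131, 130, 111 and 155 CPM. Every R403Q-EMPA mouse lay below every WT-EMPA mouse, as for 3.41% of all tested genes. Group means were 196.9 ± 18.9 and 131.9 ± 18.0 CPM, a log2 fold change of −0.58 (SE 0.0987, 95% interval −0.78 to −0.37), which is 0.669 of the wild-type level. As Chrm2 entered the set for being lower with R403Q, this is a description. In whole tissue, fewer cells of a type and less RNA per cell cannot be told apart.

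The Chrm2 value kept its direction whichever mouse was left out. As Chrm2 was chosen for being lower with R403Q, this too is a description and no test. The log2 fold change stayed between −0.67 and −0.51 when each of the 21 mice was left out in turn, and it was −0.66 with cage as a factor within the EMPA diet.

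On control diet Chrm2 levels were 217, 195, 192, 188 and 178 CPM in WT-CD and from 131 to 173 CPM in R403Q-CD (median 154). Here too every R403Q mouse lay below every wild-type mouse, as for 1.01% of all tested genes, and the log2 fold change was −0.34 (SE 0.0848). The diet contrasts, which share these mice, were −0.22 in R403Q (95% interval −0.41 to −0.03, edgeR adjusted p = 0.306) and 0.02 in wild type (−0.17 to 0.21, adjusted p = 0.962). The difference between the genotype effects on the 2 diets, the interaction, was −0.24 (−0.51 to 0.03).

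A long non-coding RNA, 9330158H04Rik, shares 142 exon bases with Chrm2 on the opposite strand. It had 15.1 to 20.2 CPM in WT-EMPA and 12.1 to 15.8 CPM in R403Q-EMPA, against 185 or more and 155 or less for Chrm2. Counting was stated to use strand, and reads from the shared bases cannot be told apart if the kit did not mark it.

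Adora1, the A1 receptor, had lower group means in R403Q than in wild type on both diets. On EMPA diet its levels were 28.3, 19.4, 19.1, 19.3 and 20.8 CPM in WT-EMPA and 17.0, 20.7, 15.7 and 16.6 CPM in R403Q-EMPA. The groups overlapped by 1 R403Q-EMPA mouse, and WT-EMPA replicate 1 was far above its group. Adora1 thus had a log2 fold change of −0.29 (SE 0.115, 95% interval −0.52 to −0.05), and −0.17 was the value nearest 0 when mice were left out.

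On control diet Adora1 stood at 29.2, 27.9, 24.4, 25.4 and 24.6 CPM in WT-CD and from 15.8 to 21.4 CPM in R403Q-CD (median 18.3). Every R403Q-CD mouse lay below every WT-CD mouse, as for 1.01% of all tested genes. The log2 fold change was −0.49 (SE 0.0982), and the interaction was 0.20 (95% interval −0.11 to 0.51). The diet contrasts share the mice by which Adora1 was chosen. In wild-type mice the value with EMPA was −0.30 (95% interval −0.52 to −0.08, edgeR adjusted p = 0.300), and in R403Q mice the value was −0.10 (−0.32 to 0.12, adjusted p = 0.725). Of the 5 WT-EMPA mice, 4 lay below all WT-CD mice and replicate 1 lay among them. Mybph shares 1162 exon bases with Adora1 on the opposite strand, and its own level did not exceed 0.150 CPM in any mouse.

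Adrb1, the main cardiac beta receptor, had lower group means in R403Q than in wild type on both diets, and no contrast was called with edgeR. Its levels were 17.2, 17.4, 18.2, 19.9 and 19.96 CPM in WT-EMPA and 14.8, 13.7, 15.7 and 17.3 CPM in R403Q-EMPA. One R403Q-EMPA mouse, replicate 4, reached the wild-type range. This gave a log2 fold change of −0.27 (95% interval −0.51 to −0.03, edgeR adjusted p = 0.287), and an exact two-sided permutation test of this gene alone, which ignores cage, gave p = 0.0317, unadjusted. On control diet WT-CD lay at 14.2 to 18.4 CPM and R403Q-CD at 10.5 to 17.3 CPM (median 13.0), a log2 fold change of −0.31. The EMPA diet values were 0.26 in R403Q and 0.21 in wild type, with edgeR adjusted p of 0.312 and 0.498.

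Adra1a, the alpha-1A receptor gene, was the most variable of the 9 among mice of 1 group. R403Q-CD ran from 9.09 to 44.5 CPM (median 29.2), a coefficient of variation of 37.5%, and the lowest value belonged to replicate 2, the mouse with the highest Nppa. WT-CD had 47.3, 37.3, 44.0, 46.5 and 33.9 CPM. WT-EMPA had 76.9, 49.3, 40.3, 39.6 and 48.2 CPM, with replicate 1 far above the rest, and R403Q-EMPA had 43.6, 42.4, 42.8 and 50.6 CPM.

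The R403Q groups of Adra1a nearly separated by diet. Of the 7 R403Q-CD mice, 6 lay below all 4 R403Q-EMPA mice, and the log2 fold change with EMPA was 0.68 (95% interval 0.17 to 1.19, edgeR adjusted p = 0.251), 0.52 to 0.83 when mice were left out. The genotype difference was −0.58 on control diet, as a description, and −0.18 on EMPA diet (−0.73 to 0.37, edgeR adjusted p = 0.773). The sign of the latter rested on WT-EMPA replicate 1: without it the value was 0.02.

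Adra1b, the alpha-1B receptor gene, had the smallest unadjusted p-values of the 9 in the diet contrasts. The R403Q-EMPA mice had 22.6, 25.0, 20.8 and 20.4 CPM and the R403Q-CD mice 10.5 to 18.4 CPM (median 16.2), so every R403Q-EMPA mouse lay above every R403Q-CD mouse. The log2 fold change was 0.54 (SE 0.142, 95% interval 0.24 to 0.83, unadjusted p = 0.00108, edgeR adjusted p = 0.151). In wild type, WT-EMPA had 30.1, 21.7, 28.4, 24.7 and 33.0 CPM and WT-CD 22.7, 13.8, 21.6, 18.4 and 17.3 CPM, which overlapped by 1 mouse of each group. In wild type it was 0.55 (SE 0.145, 0.25 to 0.85, unadjusted p = 0.000931, edgeR adjusted p = 0.173).

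Neither passed the threshold with edgeR, and with DESeq2's Wald test both did (adjusted p = 0.0450 in R403Q and 0.0414 in wild type). The other alternatives gave adjusted p up to 0.235 and 0.243. In all, edgeR called 2 genes in R403Q (0.0116% of those tested) and 5 in wild type (0.0289%), none of the 9 among them. Of the 9, 6 had an unadjusted p under 0.05 with edgeR in R403Q and 4 in wild type, where 13.4% and 11% of all genes did. The 6 include Chrm2 and the 4 include Adora1. Both were chosen by counts of mice that these contrasts may share, so nothing is read from these numbers of genes. DESeq2 called Adra1b alone of the 9 in both, with 1.05% and 0.752% of all genes called. Over all genes, 1.62% (R403Q) and 3.45% (wild type) had diet groups whose ranges did not overlap in either direction. The genotype difference of Adra1b was −0.31 on EMPA diet (95% interval −0.63 to 0.01, edgeR adjusted p = 0.348) and −0.29 on control diet.

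Other marker lists moved with the diet contrasts. The summed level of 12 clock genes was 830 to 1077 CPM in R403Q-CD and 621 to 819 CPM in R403Q-EMPA, without overlap, and 907 to 1129 CPM in WT-CD against 622 to 1009 CPM in WT-EMPA. Of the 12, 3 had values above 0 with EMPA in each genotype, and none was called by edgeR. All 6 smooth muscle and pericyte markers had values below 0 with EMPA in both genotypes, none called, with sums of 998 to 1514 CPM in R403Q-CD and 811 to 1200 CPM in R403Q-EMPA. In R403Q the 4 tested atrial markers were all below 0 with EMPA (median −3.21), with sums of 934 to 11604 CPM in R403Q-CD and 432 to 1099 CPM in R403Q-EMPA. Of 6 hypertrophy markers 5 were below 0 in R403Q (median −0.99), with sums of 6009 to 26007 and 5546 to 8112 CPM. Both lists hold Nppa, which ran at 883 to 10996 CPM in R403Q-CD and 429 to 1090 CPM in R403Q-EMPA. In wild type 5 of the 6 hypertrophy markers were above 0 with EMPA (median 0.18). Their sums were 5029 to 6588 CPM in WT-CD and 6208 to 9355 CPM in WT-EMPA. Of the 4 tested atrial markers 1 was above 0 in wild type (median −1.41). The part of these lists in the Adra1b and Adra1a values was not tested. The diet and the cage cannot be told apart.

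**Figure D2:**
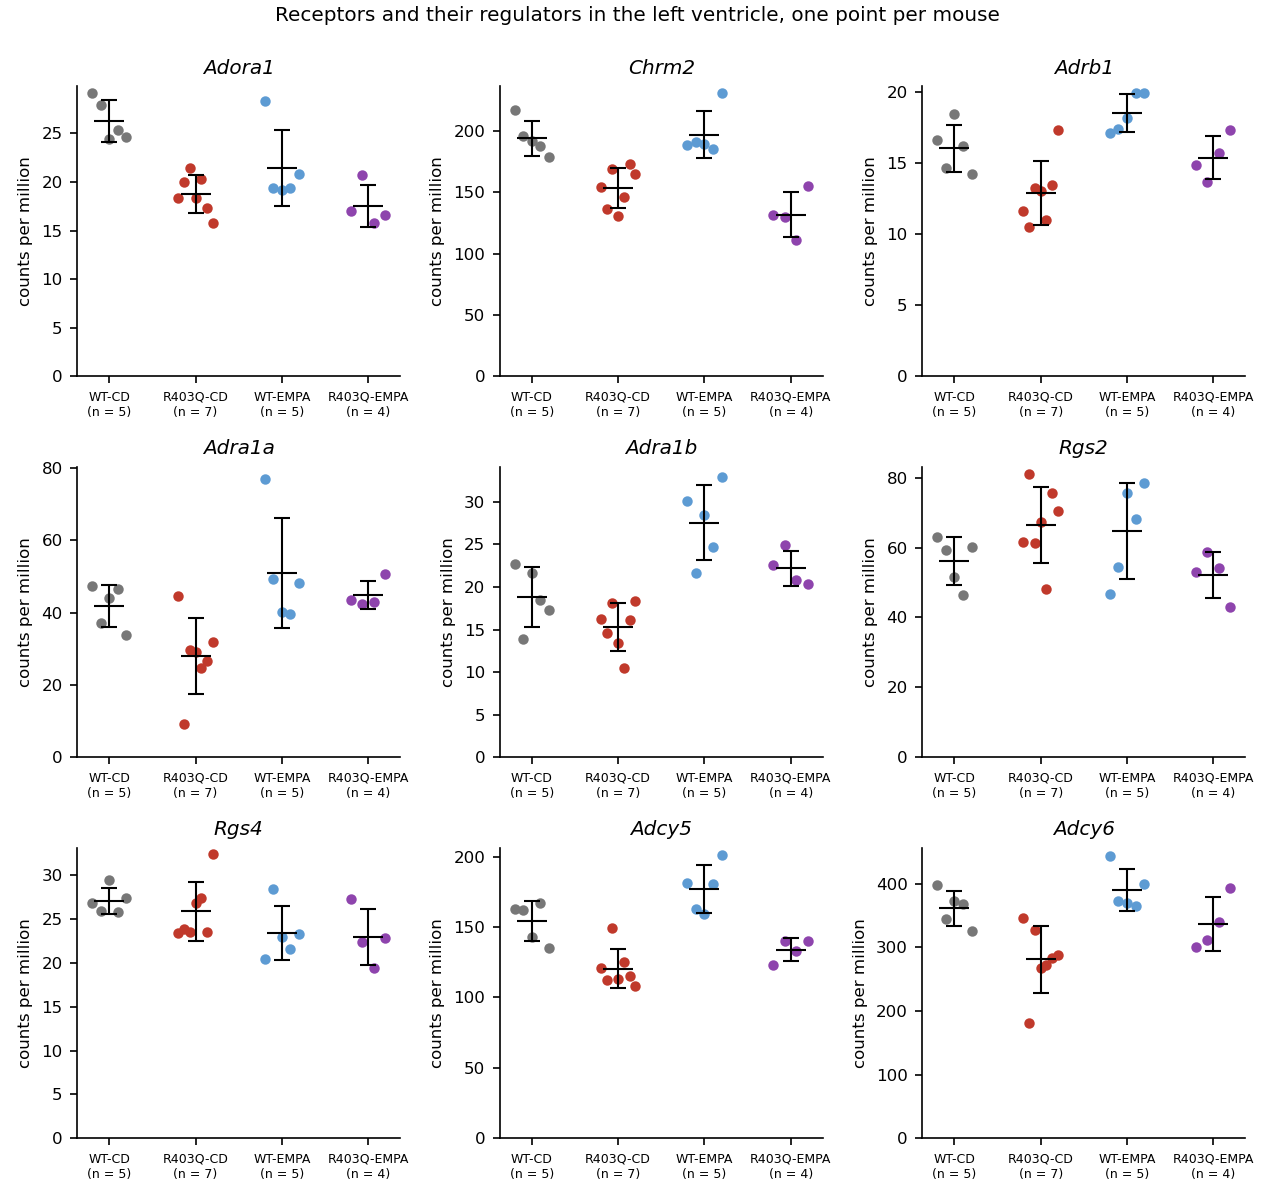
Levels of the 9 genes in CPM on axes from 0, one point per mouse; bars give the mean and SD of each group. Chrm2 in R403Q-EMPA (111 to 155 CPM) lay below WT-EMPA (185 to 231 CPM), Adcy5 likewise, and Adra1b in R403Q-EMPA (20.4 to 25.0 CPM) lay above R403Q-CD (10.5 to 18.4 CPM).

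Rgs2 and Rgs4, the regulators, were not called in any contrast. Rgs2, whose protein acts mainly on Gq, was the only 1 of the 9 with opposite signs of the genotype difference on the 2 diets. WT-CD had 63.1, 59.2, 51.5, 46.4 and 60.2 CPM and R403Q-CD 48.1 to 81.1 CPM (median 67.2). WT-EMPA had 46.7, 54.5, 75.7, 68.2 and 78.5 CPM and R403Q-EMPA 52.9, 58.7, 54.1 and 43.0 CPM. All 4 groups overlapped.

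The log2 fold change of Rgs2 for genotype was 0.24 on control diet and −0.31 on EMPA diet (95% interval −0.62 to 0.00, edgeR adjusted p = 0.341). The interaction was −0.55 (−0.97 to −0.14), with an unadjusted p of 0.0108 that did not survive adjustment (edgeR adjusted p = 0.999). No gene was called for the interaction (0% of 17309), by edgeR or by DESeq2, and 567 genes (3.28%) had an unadjusted p under 0.05 with edgeR.

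Rgs4, whose protein acts on inhibitory G proteins and Gq, had the genotype differences nearest 0 of the 9 on both diets. Its group means were 27.0 ± 1.47 CPM in WT-CD, 25.8 ± 3.35 in R403Q-CD, 23.3 ± 3.07 in WT-EMPA and 22.9 ± 3.21 in R403Q-EMPA. The genotype values were −0.06 and −0.03 on control and EMPA diet, within 95% intervals of −0.26 to 0.13 and −0.25 to 0.20. The EMPA values were −0.17 in R403Q and −0.21 in wild type (edgeR adjusted p = 0.470 and 0.453).

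Adcy5 was lower in every R403Q-EMPA mouse than in any WT-EMPA mouse, without a call. WT-EMPA had 181, 163, 159, 181 and 201 CPM and R403Q-EMPA 123, 140, 133 and 140 CPM. The log2 fold change was −0.40 (SE 0.0915, 95% interval −0.59 to −0.21, edgeR adjusted p = 0.0840). An exact two-sided permutation test, which ignores cage, gave p = 0.0159, the smallest that 4 against 5 mice allow, and with cage as a factor the value was −0.51 (edgeR adjusted p = 0.0729). It was called with DESeq2 (adjusted p = 0.00824) and with the EMPA mice fitted alone (adjusted p = 0.0433), and not in the other 5 alternative fits, which gave adjusted p up to 0.105. It was also called without WT-EMPA replicate 3, R403Q-CD replicate 2 or R403Q-CD replicate 3 (adjusted p = 0.0466, 0.0342 and 0.0361).

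On control diet Adcy5 had 163, 162, 143, 167 and 135 CPM in WT-CD and 108 to 149 CPM in R403Q-CD (median 115). R403Q-CD replicate 3 was the 1 R403Q mouse inside the wild-type range. As a description, this was a log2 fold change of −0.35 (SE 0.0789). The EMPA values were 0.15 in R403Q and 0.20 in wild type (edgeR adjusted p = 0.442 and 0.394).

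Adcy6, the more abundant cyclase, had wider R403Q groups. WT-EMPA had 443, 373, 370, 364 and 400 CPM and R403Q-EMPA 300, 312, 340 and 394 CPM, which overlapped by 1 R403Q-EMPA mouse. For Adcy6 this was a log2 fold change of −0.21 (95% interval −0.48 to 0.06, edgeR adjusted p = 0.453). On control diet WT-CD lay at 326 to 398 CPM and R403Q-CD at 182 to 346 CPM (median 283), a log2 fold change of −0.36, and the lowest was again R403Q-CD replicate 2. The EMPA values were 0.26 in R403Q and 0.11 in wild type (edgeR adjusted p = 0.349 and 0.787). The antisense gene Gm29331 shares 605 exon bases with Adcy6 and did not exceed 0.183 CPM.

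**Figure D3:**
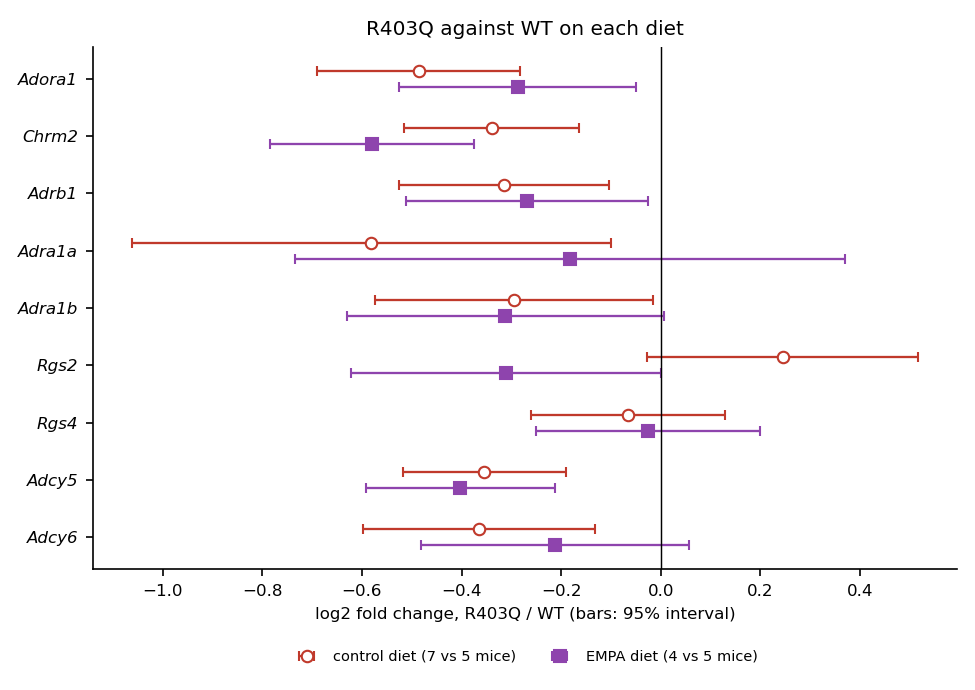
Log2 fold changes of R403Q against wild type for the 9 genes with 95% intervals from the edgeR fit, on control diet (open circles, 7 against 5 mice, a description for these genes) and on EMPA diet (filled squares, 4 against 5 mice, a description for Adora1 and Chrm2). On EMPA diet Chrm2 lies at −0.58 and Adcy5 at −0.40, and Rgs2 changes side, from 0.24 to −0.31.

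The 7 genes that were not chosen by their counts all had log2 fold changes below 0 for genotype on EMPA diet, with a median of −0.27, while the median over all tested genes was 0.01 and 48.3% of all genes were below 0. With cage as a factor within the EMPA diet 5 of the 7 were below 0, and with library size alone 6. Of the 7, edgeR called 0, with 2 at an unadjusted p under 0.05, and DESeq2 called 1, Adcy5. Over all genes edgeR called 0.0578% (10 of 17309) and DESeq2 1.86%. Adcy5 was the 1 gene of the 7 whose R403Q range lay wholly below wild type, a pattern that 3.41% of all genes had. On control diet 6 of the 7 were below 0, and 5 with library size alone. There edgeR called 1 of the 7, Adcy5, where 1.44% of all genes were called, and DESeq2 called Adcy5 and Adcy6, where 5.6% were. None of the 7 had an R403Q range wholly below wild type there, as 1.01% of all genes did. Adcy5 was not called with cage as a factor within control diet, without the WT-EMPA group, without WT-CD replicate 1, 2, 3 or 4 or without R403Q-CD replicate 5. Adcy6 was also called without R403Q-CD replicate 1 or 3, and Adrb1 without R403Q-CD replicate 7. With cage as a factor the control diet log2 fold changes were −0.34 for Adcy5, −0.45 for Adora1 and −0.35 for Chrm2. The control diet comparison may have entered the choice of the set, so nothing is read from its counts.

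The cardiomyocyte marker sum itself differed between the EMPA groups. The 8 markers summed to 90402 to 104873 CPM in WT-EMPA and 79631 to 89982 CPM in R403Q-EMPA, without overlap, and Myh6 alone made 40424 to 54667 and 31549 to 40980 CPM of these. The other 7 markers overlapped, at 46500 to 55739 and 46544 to 58433 CPM, and 4 of the 8 were higher and 4 lower in R403Q-EMPA. Scaled to the counts of those 7 markers, a choice made after the data were seen, Chrm2 was −0.61 and Adcy5 −0.42 on the log2 scale on EMPA diet. Both kept separate ranges, which for Chrm2, chosen for being lower with R403Q, is a description. The exact permutation p was 0.0159 for Adcy5. For Adrb1 that p was 0.0952 on this scaling, against 0.0317 without it. On control diet Adora1 overlapped between the genotypes on this scaling, while Chrm2 and Adcy6 did not.

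Other markers also moved with genotype. All 5 macrophage markers and all 6 fibroblast markers had values above 0 in R403Q on both diets. The macrophage sum was 134 to 207 CPM in WT-EMPA and 217 to 297 CPM in R403Q-EMPA, and the fibroblast sum 1016 to 1607 and 1663 to 1977 CPM, both without overlap. On control diet the macrophage sum was 154 to 205 CPM in WT-CD and 207 to 325 CPM in R403Q-CD, without overlap, with 2 of the 5 markers called by edgeR. The fibroblast sum was 1088 to 1763 and 1477 to 3804 CPM there, and the cardiomyocyte sum 92701 to 101440 and 60023 to 94243 CPM. Of 7 tested conduction cell markers, 5 had values above 0 in R403Q on EMPA diet (median 0.06), with sums of 84.6 to 140.0 CPM in WT-EMPA and 92.0 to 112.6 CPM in R403Q-EMPA. The 2 below 0 were Cacna1g and Hcn4. On EMPA diet Cacna1g ran at 32.6 to 57.2 CPM in WT-EMPA and 24.8 to 32.3 CPM in R403Q-EMPA, and Hcn4 at 7.49 to 16.0 and 5.64 to 9.91 CPM. Of 4 tested atrial markers 1 was above 0, and Myl7 was at 0.225 to 37.8 and 0.146 to 12.3 CPM. On control diet 3 of the 7 conduction markers were above 0 and edgeR called 2, with sums of 92.1 to 113.9 CPM in WT-CD and 58.5 to 97.3 CPM in R403Q-CD. All 4 tested atrial markers were above 0 on control diet (median 1.05), with 1 called by edgeR. Of 6 hypertrophy markers 5 were above 0 on control diet (median 1.01, 1 called) and 2 on EMPA diet (median −0.01, none called). The part of these lists in the Chrm2, Adora1 and Adcy5 values was not tested.

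**Figure D4:**
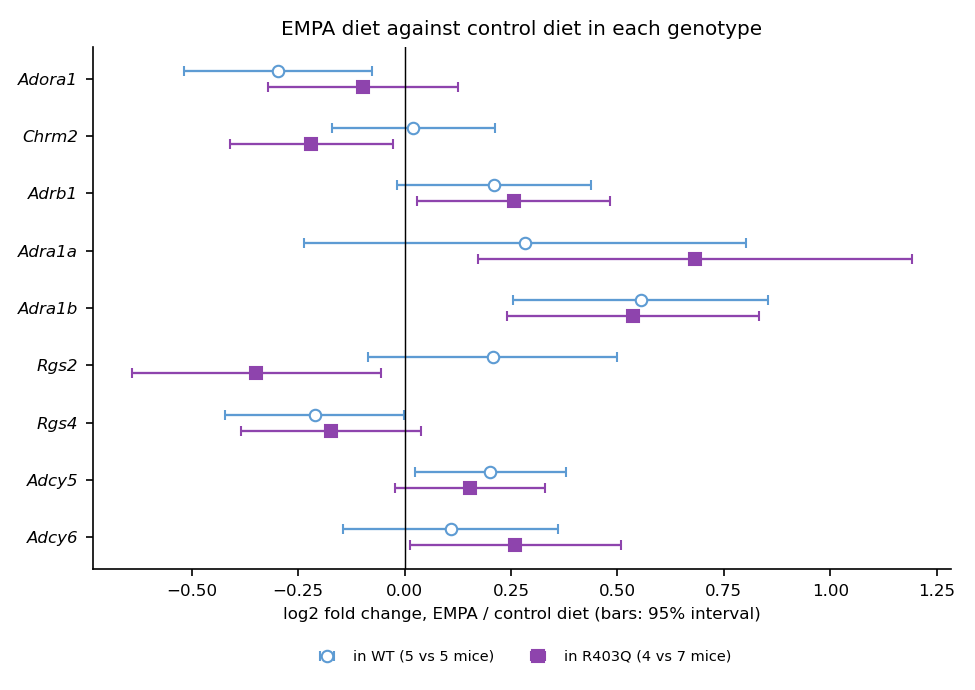
Log2 fold changes of EMPA against control diet for the 9 genes with 95% intervals from the edgeR fit, in wild type (open circles, 5 against 5 mice) and R403Q (filled squares, 4 against 7 mice). Adra1b lies at 0.55 and 0.54, Adra1a at 0.28 and 0.68, and Rgs2 at 0.21 and −0.35, and edgeR called none of the 9.

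Within R403Q-CD, Adra1a and Adcy6 were lower in the mice with more Nppa. Over the 7 mice, on log2 CPM, Pearson's r with Nppa was −0.89 for Adra1a (exact permutation p = 0.00893, adjusted over the 9 genes 0.0402) and −0.90 for Adcy6 (p = 0.00694, adjusted 0.0402). Spearman's rho was −0.75 for Adra1a (exact permutation p = 0.0663) and −0.86 for Adcy6 (p = 0.0238), neither under 0.05 after adjustment (0.246 and 0.214). Without replicates 2 and 5, the mice farthest from the median of Nppa, r fell to −0.29 for Adra1a and was −0.71 for Adcy6 over 5 mice. The relation of Adra1a thus rested on those 2 mice. With library size alone as the scaling r was −0.88 and −0.84, and neither stayed under 0.05 after adjustment.

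The other 7 had r between −0.65 (Chrm2) and 0.40 (Adora1), none past adjustment. The R403Q-CD mice came from 4 cages, each with 1 to 3 of them and at least 1 WT-CD mouse. For 2 of them, replicate 2 included, the cage held no other R403Q-CD mouse. After subtracting cage means, which leaves 5 mice of 2 cages, r was −0.60 for Adra1a and −0.50 for Adcy6, given with no test. The 2 genes also tracked each other: r between Adra1a and Adcy6 was 0.93 over the 21 mice and 0.92 after subtracting group means, the highest of the 36 pairs. Adora1 and Chrm2, both lower in R403Q-CD, had r = 0.60 over 21 mice and 0.03 after subtracting group means. These correlations share libraries and groups and are descriptions.

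**Figure D5:**
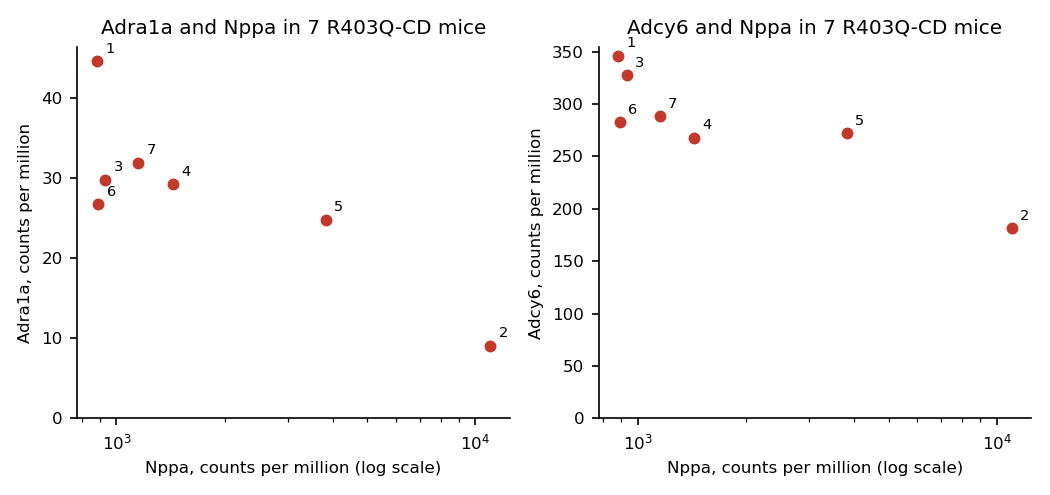
Adra1a (left) and Adcy6 (right) in CPM against Nppa in CPM on a log axis for the 7 R403Q-CD mice, numbered by replicate. Replicate 2, with 10996 CPM of Nppa, has the lowest Adra1a (9.09 CPM) and Adcy6 (182 CPM).

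Among 14106 other genes with at least 1 CPM on average, those most like Adora1 over the 21 mice were Caprin2 (r = 0.79), Eef2k (r = 0.79), Kcnj12 (r = 0.78), Camk2b (r = 0.78) and C130013H08Rik (r = 0.77). Kcnj12 encodes an inward rectifier potassium channel and Camk2b a calmodulin-dependent kinase. Those most like Chrm2 were Pcdh7 (r = 0.87), Xpo4 (r = 0.86), Dip2b (r = 0.85), Ghr (r = 0.85), the growth hormone receptor gene, and Dnajc18 (r = 0.84). The measure was Pearson's r of log2 CPM over mice of all 4 groups, with no test.

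The wider route from receptor to effector was covered by 12 lists with 133 genes reported, of which 114 were tested. With edgeR none of the 114 was called for genotype on control or EMPA diet, for EMPA in R403Q or in wild type, or for the interaction, while 35, 21, 19, 9 and 6 had an unadjusted p under 0.05. Over all genes 20.9%, 14.7%, 13.4%, 11% and 3.28% did. DESeq2 called 15 of the 114 for genotype on control diet, where it called 5.6% of all genes, and 4 on EMPA diet (Adcy1, Popdc2, Kcnj5 and Akap6), where it called 1.86%. It called 1 for EMPA in R403Q (Akap1, 1.05% of all genes), 1 for EMPA in wild type (Pde3a, 0.752%) and 0 for the interaction.

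Directly downstream of Adora1 and Chrm2, both tested channel subunits had values below 0 in R403Q on both diets, without a call by edgeR, and DESeq2 called Kcnj5 on EMPA diet. Kcnj5 was at 94.8 ± 12.8 CPM in WT-EMPA and 69.0 ± 11.9 CPM in R403Q-EMPA, with log2 fold changes of −0.46 on EMPA diet (edgeR adjusted p = 0.120) and −0.32 on control diet (adjusted p = 0.104). Kcnj3 had −0.20 and −0.35 (adjusted p = 0.537 and 0.131). Of the 13 alpha subunits, 12 were above 0 on control diet with a median of 0.13, and 6 were below 0 on EMPA diet with a median of 0.02. Gnai3, an inhibitory subunit, had the value 0.27 on control diet (edgeR adjusted p = 0.0884) and 0.11 on EMPA diet (adjusted p = 0.605). Gnao1 had 0.72 and 0.39 (adjusted p = 0.143 and 0.575). Among the 12 beta and gamma subunits, 11 were above 0 on control diet and 10 on EMPA diet, with medians of 0.11 and 0.12. Gng2 had the values 0.38 and 0.20 and Gng11 0.41 and 0.46 (edgeR adjusted p from 0.143 to 0.583).

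Among the 7 other tested cyclases, the scarce Adcy1 (4.89 ± 1.1 CPM in WT-EMPA, 2.27 ± 0.413 in R403Q-EMPA) and Adcy8 (0.757 ± 0.354 and 0.334 ± 0.201) had values of −1.1 and −1.20 on EMPA diet (edgeR adjusted p = 0.0900 and 0.202) and −0.57 and −1.32 on control diet (0.149 and 0.0712). Of the 17 genes of protein kinase A and its anchors, which carry the cyclic AMP signal on, 12 were below 0 for genotype on each diet. The catalytic subunit gene Prkaca had −0.32 on control diet and −0.23 on EMPA diet (edgeR adjusted p = 0.0563 and 0.292), and the anchor gene Akap6 −0.07 and −0.41 (0.620 and 0.0840). The 13 phosphodiesterases, which break down cyclic nucleotides, had medians of 0.13 and −0.04. Pde8a had 0.33 and 0.18 and Pde7a −0.52 and −0.28 on control and EMPA diet (edgeR adjusted p from 0.0745 to 0.486).

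Of the 11 Gq effectors, 10 were below 0 for genotype on EMPA diet, with a median of −0.15, and 6 on control diet, with a median of −0.01. Prkce, a protein kinase C gene, had −0.26 and −0.39 (edgeR adjusted p = 0.340 and 0.0629) and Prkcb 0.45 and 0.51 (0.301 and 0.119) on those diets. The receptor kinases and arrestins, which silence active receptors, split by gene. Arrb2 had 0.40 on control diet and 0.30 on EMPA diet, and Grk3 −0.29 and −0.17 (edgeR adjusted p from 0.0569 to 0.451).

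The 9 other tested RGS genes had a median of 0.47 on control diet and 0.12 on EMPA diet, led by the scarce Rgs1 (2.19 and 2.38) and Rgs11 (1.47 and 1.03). Their levels in WT-CD were 0.0857 ± 0.0552 and 0.719 ± 0.151 CPM, so Rgs1 was within the limit of 3 counts in some mice. EdgeR adjusted p for these 4 values ran from 0.0563 to 0.287. Among the other receptors, Adora2b had 0.39 and 0.12 and Adra2c 0.18 and −0.59 (edgeR adjusted p from 0.389 to 0.876).

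For the ligands, the 8 genes of adenosine formation, uptake and removal had a median of 0.13 on control diet and 0.03 on EMPA diet. Nt5e, whose ecto-enzyme makes adenosine, had 0.13 and −0.45 (edgeR adjusted p = 0.692 and 0.271), and Entpd1, which supplies its substrate, 0.22 and 0.16 (0.344 and 0.647). Of the 13 genes reported for acetylcholine and noradrenaline handling, 8 were tested. Maoa, the gene of a monoamine oxidase, had 0.80 on control diet and 0.46 on EMPA diet (edgeR adjusted p = 0.0890 and 0.462), and Maob, the gene of the other form, −0.36 and −0.28 (0.206 and 0.486).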

How the data were processed

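Left ventricular RNA of 21 mice was sequenced from poly(A) libraries as 100-base read pairs. The authors aligned reads to mm10 with STAR 2.6.0c and made the deposited counts with featureCounts (Subread 1.6.2), taking uniquely aligned proper pairs on the same strand over Ensembl genes. They also deposited log2 values, the variance-stabilizing transform of DESeq2 1.32.0. Here the counts were fitted with edgeR 4.0.16 (R 4.3.3), as 1 quasi-likelihood model of 4 groups with TMM scaling, filterByExpr (minimum count 10) and Benjamini-Hochberg adjustment over all 17309 tested genes at 0.05. The fit was tested on simulated data. Alternatives used DESeq2 1.42.0, limma 3.58.1, other scaling, no filter, cage terms and each mouse left out. The log2 values served only the limma alternative. Log2 CPM used a prior count of 2, and exact tests used scipy 1.17.1. Intervals of log2 fold changes are 95%, from the fit's standard error.

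The 9 genes and all lists were chosen with earlier results of these data known, and no genotype p-value or call of Adora1 or Chrm2 is given. The text names the 9 genes, the 2 genes per list with the smallest p-value for genotype on either diet, list genes called in the contrasts other than genotype on control diet, and the 5 genes most like Adora1 and Chrm2. Popdc2, Akap1 and Pde3a, the scaling to 7 cardiomyocyte markers and the marker genes given by level were chosen after their values were seen. The labels number no replicates, so numbers follow the order of deposition. Symbols and positions came from GENCODE M21 (55190 of 55450 identifiers matched), and promoters from RefSeq. The study's own test was DESeq2's Wald test, run here as an alternative. A few genes of these lists are not reported here, and the counts given for the lists leave them out.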

Additional observations from a re-analysis of the deposited data

Results flagged for a closer look

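In 6 of 36 sets of CPM values (9 genes in 4 groups), 1 mouse lay further from its group than Dixon's 95% critical value allows, where chance gives about 1 in 20 (1.8 of 36). WT-EMPA replicate 1 was high for Adora1 (28.3 CPM, the next mouse 20.8 CPM) and for Adra1a (76.9 CPM, the next 49.3 CPM). WT-EMPA replicate 5 was high for Chrm2 (230.6 CPM, the next 190.7 CPM). R403Q-EMPA replicate 4 was high for Adra1a (50.6 CPM, the next 43.6 CPM). R403Q-CD replicate 7 was high for Adrb1 (17.3 CPM, the next 13.5 CPM), and R403Q-CD replicate 3 for Adcy5 (149.1 CPM, the next 125.2 CPM). Without WT-EMPA replicate 1 the genotype difference of Adora1 on EMPA diet was −0.17 on the log2 scale, against −0.29 with all mice.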

How the results depend on the processing

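Counts of genes called over the whole table moved with the method. For genotype on control diet, 250 became 970 with DESeq2, 475 with cage as a random effect, 98 without the WT-EMPA group and 19 with cage as a factor, and 31 to 1045 when 1 mouse was left out. For genotype on EMPA diet, 10 became 299 with DESeq2, 123 with the EMPA mice alone and 6 with cage as a factor, and 1 to 201 without 1 mouse. For EMPA in R403Q, 2 became 5 with library size alone, 157 with DESeq2 and 0 without the WT-EMPA group, and 0 to 12 without 1 mouse. For EMPA in WT, 5 became 0 with library size alone, 112 with DESeq2, 1 with limma and 1 with cage as a random effect, and 0 to 12 without 1 mouse. The cause was not tested.

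For the 9 genes, values near 0 changed sign. The Rgs4 genotype value was 0.0016 on control diet and 0.022 on EMPA diet with library size alone, and on EMPA diet with cage as a factor Rgs4 was 0.0198 and Adra1a 0.0301. Leaving out 1 mouse gave ranges across 0 for genotype on EMPA diet (Adra1a −0.26 to 0.016, Rgs4 −0.12 to 0.056), for EMPA in WT (Chrm2 −0.042 to 0.064) and for the interaction (Adrb1 −0.014 to 0.13, Adra1b −0.10 to 0.075, Rgs4 −0.053 to 0.12, Adcy5 −0.084 to 0.0097). The other values of the 9 genes kept their direction in every alternative run. With Nppa in R403Q-CD, 2 genes passed adjustment, and 0 with library size alone, where r was 0.29 for Rgs4 and 0.15 for Adcy5. Without the 2 mice farthest from the median of Nppa, r was −0.25 for Adora1, 0.33 for Adrb1 and 0.64 for Rgs4, each of the opposite sign. The labels number no replicates, so mice could not be paired by number, and the blocked fits took cage as the block. Depth did not limit the 9 genes, each with at least 349 counts in every mouse, and the number of mice limits precision.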
